A study of Caenorhabditis elegans with 10 samples.

Results

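The sperm genes described here are 72 of the 17118 genes that the array reports under a single symbol in whole young adult Caenorhabditis elegans, a nematode whose hermaphrodites make their own sperm. They are the genes with the symbol stems msp, ssp, spe, nspd or ssq followed by a number, together with gsp-3 and gsp-4. That rule uses names and no measured value, but it was written with earlier results of these data known. The brightest probe set stood for a gene that had more than 1. Of the 72 genes, 23 encode the major sperm protein and 49 are other sperm genes, and these sets are reported apart. A filter on low levels, set at a mean log2 level of 2.60, kept all 23 major sperm protein genes and 34 of the 49 others.

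The major sperm protein is a small protein made from a large family of nearly identical genes. It forms the cytoskeleton with which the crawling, amoeboid sperm of nematodes moves, and when released from sperm it is also a signal that triggers oocyte maturation and ovulation. A hermaphrodite makes sperm late in larval life, stores it, and then switches its germ line to oocytes. Transcripts of sperm genes are therefore made in the germ line during a limited window, and sperm that have matured no longer transcribe their genes. The spe genes were named for mutants with defective spermatogenesis, and they include enzymes, channels, receptors for fertilization and vesicle proteins.

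The missense mutants were gas-1 (fc21), labelled as complex I of the mitochondrial electron transport chain, mev-1 (kn1), labelled as complex II, and isp-1 (qm150), labelled as complex III, with 1 array each. Their wild type was N2 (Bristol) on 1 array, and all 4 of these populations were kept on OP50 bacteria on plates and then on K12 bacteria in liquid. The RNAi animals were N2 fed bacteria that express double-stranded RNA against a complex I gene, with 5 mM IPTG, on 1 array for each of nduf-6 (F22D6.4), nuo-5 (Y45G12B.1), ndua-13 (C34B2.8), ndab-1 (Y56A3A.19) and ndub-7 (D2030.4). Their wild type was N2 on HT115 bacteria throughout, on 1 array, with no mention of IPTG or of an empty vector in its label. Every array held pooled RNA of 3 biological replicates, so 1 array is 1 value with no error of its own. All animals were labelled as predominantly young adults, collected by sucrose centrifugation after 2 generations on plates and a further one in liquid, so a population may hold other stages too.

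In all, 12641 genes passed the filter and were compared. Of the RNAi targets, 4 were lower than in the HT115 wild type, by log2 differences of -0.95 for nuo-5, -0.51 for ndua-13, -0.25 for nduf-6 and -0.18 for ndub-7. The lower quartiles over all genes tested in those arrays were -0.24, -0.32, -0.23 and -0.52, in the same order. The difference for ndub-7 was thus smaller than the lower quartile and that for nduf-6 close to it, so neither target showed a clear fall. In the array labelled ndab-1 RNAi, ndab-1 itself was higher, by a log2 difference of 1.08, against the label. The label of isp-1 gives the same sequence name as that of mev-1. The ndub-7 RNAi array differed most from its wild type, with 11.5% of the 12641 genes at least 2-fold higher and 10.3% at least 2-fold lower.

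All 23 major sperm protein genes were highest of the 10 arrays in ndub-7 RNAi and lowest in nduf-6 RNAi, and these arrays stood apart by a median of 4.43 on the log2 scale, or 21.6-fold, with a range over the 23 genes of 3.68 to 5.35. By comparison, ndub-7 RNAi was highest for 20.7% of the 12641 genes and nduf-6 RNAi was lowest for 9.34% of them. A difference between single arrays has no replicate check and no test was made of it. In RNA of whole animals, fewer cells of a type and less RNA per cell cannot be told apart.

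The median log2 level of the 23 genes was 12.01 in gas-1 mutants, 12.42 in mev-1 mutants and 11.42 in isp-1 mutants, against 11.90 in the K12 wild type. In the RNAi arrays it was 8.61 for nduf-6, 11.68 for nuo-5, 11.54 for ndua-13, 11.999 in the array labelled ndab-1 RNAi and 13.02 for ndub-7, against 11.30 in the HT115 wild type. The nduf-6 RNAi array thus lay far below all the others, whereas the other 9 formed a graded series with ndub-7 RNAi and mev-1 at its top.

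**Figure D1:**
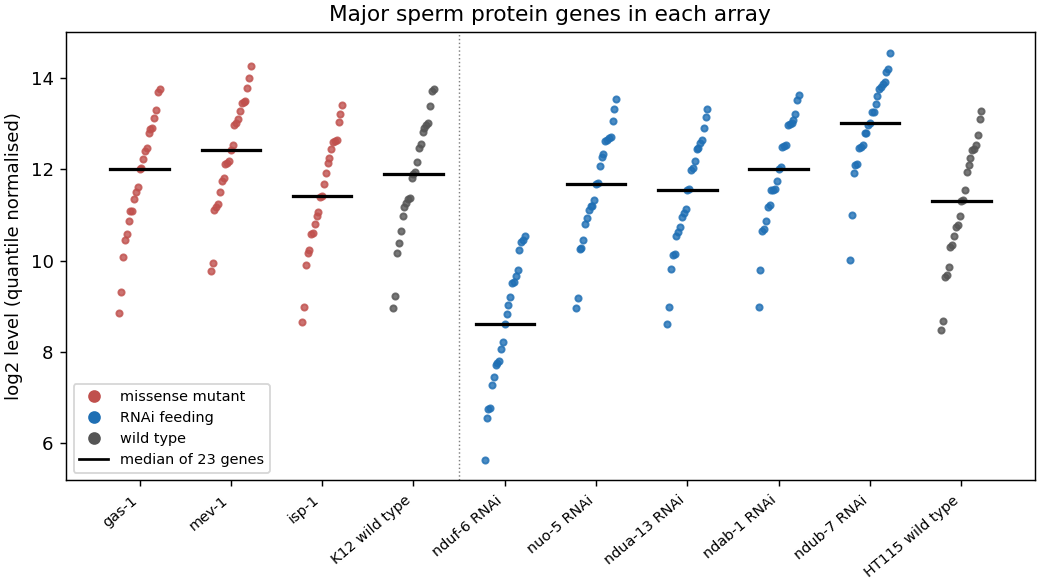
Log2 levels of the 23 major sperm protein genes (y axis) in each of the 10 arrays (x axis), with 1 point per gene, sorted by level within an array, and a black bar at the median. The nduf-6 RNAi points sit around a median of 8.61, against 11.30 in the HT115 wild type, and the ndub-7 RNAi points around 13.02.

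In nduf-6 RNAi animals the major sperm protein genes were lower than in the HT115 wild type by a median log2 difference of -2.63, a level 0.161 times that of wild type. The 23 differences ran from -3.07 (msp-33) to -1.92 (msp-74), so all 23 were at least 2-fold lower, against a background of 4.01% of all genes tested and a median difference of 0.037 over those genes. In ndub-7 RNAi animals they were higher by a median of 1.63, or 3.09-fold, and ran from 1.11 (msp-78) to 2.52 (msp-74). All 23 were at least 2-fold higher, where 11.5% of all genes tested were, and the median over all genes tested was -0.071.

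The other RNAi arrays differed less from the HT115 wild type. In the array labelled ndab-1 RNAi all 23 genes were higher, by a median log2 difference of 0.74, and 5 of them were at least 2-fold higher, against 5.68% of all genes tested, with 4.11% at least 2-fold lower. In nuo-5 RNAi all 23 were higher by a median of 0.38 and none reached 2-fold, where 4.05% of all genes were that much higher and 3.28% that much lower. In ndua-13 RNAi 22 of 23 were higher by a median of 0.18, with msp-32 at -0.059, and none reached 2-fold in either direction, against 5.27% of all genes higher and 4.83% lower.

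Among the missense mutants, mev-1 stood above and isp-1 below the K12 wild type. All 23 genes were higher in mev-1, by a median log2 difference of 0.53 with a range of 0.28 to 0.94. All 23 were lower in isp-1, by a median of -0.34 with a range of -0.68 to -0.15. In gas-1 the median was -0.063, with 10 genes higher and 13 lower. None of the 23 genes reached 2-fold in these 3 mutants. Over all genes tested, the shares at least 2-fold higher and lower were 3.62% and 2.82% in gas-1, 4.27% and 3.09% in mev-1, and 2.41% and 2.22% in isp-1.

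The wild types themselves differed. All 23 major sperm protein genes were higher in the K12 than in the HT115 wild type, by a median log2 difference of 0.61 and a range of 0.28 to 0.83. None of them reached 2-fold, where 4.11% of all genes tested were at least 2-fold higher and 3.06% at least 2-fold lower. This is as large as the shift in mev-1, and bacterial diet and single-array differences cannot be told apart here. When the mean of both wild types was used in place of the labelled one, the median became 0.32 in gas-1 mutants (22 of 23 higher), 0.85 in mev-1 mutants (23 higher) and -0.065 in isp-1 mutants (14 lower). It became 0.090 in nuo-5 RNAi (16 higher), -0.11 in ndua-13 RNAi (18 lower) and 0.36 in the array labelled ndab-1 RNAi, where all 23 stayed higher and none reached 2-fold. The direction in gas-1 and ndua-13 RNAi, the size in isp-1, nuo-5 RNAi and the array labelled ndab-1 RNAi, and the shared direction of all 23 genes in isp-1 and nuo-5 RNAi therefore depended on which wild type was used. The medians of -2.98 in nduf-6 RNAi and 1.32 in ndub-7 RNAi kept their direction and stayed beyond 2-fold under that choice.

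The major sperm protein genes whose levels ranged most over the 10 arrays were msp-142, msp-49, msp-50, msp-33 and msp-3, with ranges of 5.35, 5.16, 5.04, 5.03 and 4.98 on the log2 scale. For msp-142 the log2 level was 10.45 in gas-1 mutants, 11.24 in mev-1 mutants and 10.23 in isp-1 mutants, against 10.38 in the K12 wild type. It was 6.78 in nduf-6 RNAi, 10.25 in nuo-5 RNAi, 10.12 in ndua-13 RNAi, 10.70 in the array labelled ndab-1 RNAi and 12.12 in ndub-7 RNAi, against 9.69 in the HT115 wild type. Only nduf-6 RNAi lay below and only mev-1, ndub-7 RNAi and, by a small margin, gas-1 and the array labelled ndab-1 RNAi lay above both wild types.

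The genes with the smallest ranges were msp-53, msp-55 and msp-78, with ranges of 3.68, 3.72 and 3.74 on the log2 scale. For msp-78 the log2 level was 13.76 in gas-1 mutants, 13.99 in mev-1 mutants and 13.22 in isp-1 mutants, against 13.71 in the K12 wild type. It was 10.46 in nduf-6 RNAi, 13.33 in nuo-5 RNAi, 13.15 in ndua-13 RNAi, 13.52 in the array labelled ndab-1 RNAi and 14.20 in ndub-7 RNAi, against 13.09 in the HT115 wild type. For this gene, nduf-6 RNAi lay further below the next array than the other 9 arrays lay apart. That did not hold for every gene of the family. For msp-74 the levels were 6.56 in nduf-6 RNAi, 8.47 in the HT115 wild type, the next array, and 10.99 in ndub-7 RNAi.

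These genes are not 23 independent measurements. Each of the 23 was read on a probe set that the array maker marks as sharing sequence with other genes, and how far they read each other's transcripts was not tested. A further 15 probe sets carried several symbols with a sperm gene among them and were left out, and 8 of these held a major sperm protein gene. Those 8 had median log2 differences of -2.57 in nduf-6 RNAi, 1.32 in ndub-7 RNAi, 0.46 in mev-1 and -0.25 in isp-1, the same signs as the 23. The only gene of the family with a second probe set was msp-32, and that set, not marked as shared, stood at a mean log2 level of 2.05, below the filter, and differed by -0.12 in nduf-6 RNAi and by -0.0052 in ndub-7 RNAi.

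The major sperm protein genes lie in groups along the chromosomes. In the order of genes in the RefSeq annotation, with a gap of up to 50 genes allowed within a group, the 23 fell into 5 groups of 3 to 6 genes. In nduf-6 RNAi the median log2 differences of the groups lay close together. They were -2.88 for the 6 genes from msp-3 to msp-152, -2.56 for the 4 with msp-74, -2.58 for the 3 with msp-63, -2.58 for the 5 with msp-55 and -2.71 for the 5 with msp-76. In ndub-7 RNAi they spread more widely. The groups with msp-74, msp-63 and msp-3 had medians of 2.37, 2.23 and 1.96, whereas those with msp-76 and msp-55 had medians of 1.51 and 1.38, and all 23 genes were higher in each group.

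The 49 other sperm genes followed the same order of arrays in part. Of the 34 that passed the filter, 25 were highest in ndub-7 RNAi and 23 were lowest in nduf-6 RNAi, where 20.7% and 9.34% of all genes were. Their median log2 difference was 1.55 in ndub-7 RNAi, with 30 higher, 4 lower and 24 at least 2-fold higher, against 11.5% of all genes tested. In nduf-6 RNAi it was -0.74, with 26 lower, 8 higher and 16 at least 2-fold lower, against 4.01% of all genes tested. Between those arrays the 34 genes differed by a median of 3.02 on the log2 scale, and 25 of them were at least 2-fold higher in ndub-7 than in nduf-6 RNAi, against 12.3% of all genes tested.

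Among the missense mutants the other sperm genes had a median log2 difference of 0.66 in mev-1, where 32 of 34 were higher and 6 at least 2-fold higher, against 4.27% of all genes tested. In isp-1 the median was -0.40, with 25 lower, 8 higher and none past 2-fold. Over all genes tested, 2.41% were at least 2-fold higher in isp-1 and 2.22% at least 2-fold lower. In gas-1 the median of the 34 was 0.0077. With the mean of both wild types the medians were 0.84 in mev-1 (31 higher), -0.14 in isp-1 (21 lower, 13 higher) and 0.21 in gas-1 (26 higher, 8 lower). Set directly against each other, mev-1 and isp-1 differed by a median of 1.14 over the 34 genes, with 19 at least 2-fold higher in mev-1, and by 0.94 over the 23 major sperm protein genes, with 10 at least 2-fold higher, against 4.66% of all genes tested. In all, 22 of the 34, or 64.7%, were higher in mev-1 and ndub-7 RNAi and lower in isp-1 and nduf-6 RNAi. That combination of signs held for all 23 major sperm protein genes and for 3.71% of all genes tested. It was not planned and repeats the directions already given for those 23 genes, so it is a description and not a test. With the mean of both wild types, 14 of the 23 were lower in isp-1.

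**Figure D2:**
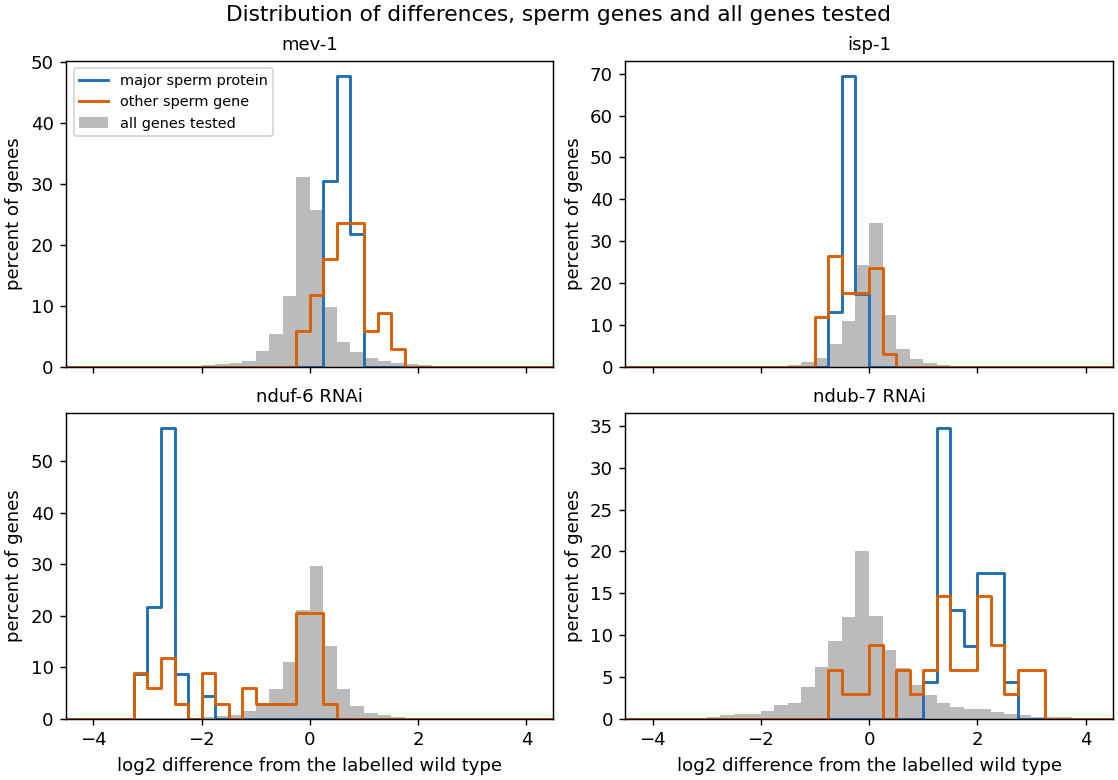
Percent of genes (y axis) by log2 difference of a mutant array from its labelled wild type (x axis) in mev-1, isp-1, nduf-6 RNAi and ndub-7 RNAi, for the 23 major sperm protein genes, the 34 other sperm genes tested and all 12641 genes tested (grey). In nduf-6 RNAi the major sperm protein genes form a peak around their median of -2.63. The other sperm genes spread from -3.09 to 0.25 there, with a median of -0.74.

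Another 15 of the other sperm genes stayed near the bottom of the scale. The 15 genes below the filter were nspd-8 and 14 spe genes, and 12 of them stayed under 2.60 in every array. The highest level among the 15 was 2.78, for spe-10 in ndub-7 RNAi, and the largest range over the arrays was 0.63. They include genes for fertilization, such as spe-9, an epidermal growth factor-like membrane protein of sperm, and spe-38, a membrane protein with 4 spans, and spe-36, spe-49 and spe-51. They also include spe-8, spe-12, spe-19 and spe-43, which act in sperm activation. Just above the filter lay ssq-4, with a mean log2 level of 2.61, or 2.54 without nuo-5 RNAi, its highest array, so it passed only through that array. Next came spe-27, with 2.97, and just below the filter lay spe-51, with 2.49, and spe-43, with 2.45. Over all 49 genes, the medians were 0.88 in ndub-7 RNAi, -0.14 in nduf-6 RNAi, 0.37 in mev-1 and -0.073 in isp-1.

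The sperm phosphatases gsp-3 and gsp-4, a pair of closely related enzymes of the protein phosphatase 1 class needed for sperm development and motility, followed the major sperm protein genes. For gsp-3 the log2 level was 8.45 in gas-1 mutants, 9.21 in mev-1 mutants and 7.72 in isp-1 mutants, against 8.34 in the K12 wild type. It was 4.45 in nduf-6 RNAi, 7.85 in nuo-5 RNAi, 7.70 in ndua-13 RNAi, 8.29 in the array labelled ndab-1 RNAi and 9.62 in ndub-7 RNAi, against 7.13 in the HT115 wild type. The order of arrays was that of the major sperm protein genes at both ends, and gsp-4 repeated it with log2 differences of -1.92 in nduf-6 RNAi and 2.27 in ndub-7 RNAi.

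The ssp genes, a family of small sperm-specific proteins, all 8 passed the filter and had median log2 differences of -1.35 in nduf-6 RNAi and 2.07 in ndub-7 RNAi. The gene with the widest range of all 72 was ssp-16, at 5.57 on the log2 scale. Its level was 6.93 in gas-1 mutants, 7.51 in mev-1 mutants and 6.10 in isp-1 mutants, against 6.17 in the K12 wild type. It was 2.93 in nduf-6 RNAi, 6.32 in nuo-5 RNAi, 5.71 in ndua-13 RNAi, 6.82 in the array labelled ndab-1 RNAi and 8.50 in ndub-7 RNAi, against 5.82 in the HT115 wild type. In nduf-6 RNAi ssp-16 was thus close to the level filter, while it lay well above it in every other array.

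Within the family, ssp-35 and ssp-34 ranged over 4.90 and 4.60 on the log2 scale, with differences of -2.75 and -1.84 in nduf-6 RNAi and 2.15 and 2.76 in ndub-7 RNAi. The member ssp-37 went its own way. Its log2 level was 7.96 in gas-1 mutants, 8.71 in mev-1 mutants and 8.57 in isp-1 mutants, against 8.83 in the K12 wild type. It was 8.80 in nduf-6 RNAi, 8.43 in nuo-5 RNAi, 8.20 in ndua-13 RNAi, 8.38 in the array labelled ndab-1 RNAi and 8.61 in ndub-7 RNAi, against 8.94 in the HT115 wild type. All 8 mutant arrays lay below their wild type for this gene, by log2 differences of -0.87 in gas-1 at most and -0.12 in mev-1 at least.

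The ssq genes, another sperm-specific family, and the nspd genes, a family of nematode-specific peptides, are less well characterised. Of the nspd genes, 5 of 6 passed the filter, with medians of -2.74 in nduf-6 RNAi and 1.46 in ndub-7 RNAi. The widest range was that of nspd-4, with a log2 level of 5.75 in nduf-6 RNAi and 10.51 in ndub-7 RNAi, against 8.85 in the HT115 wild type. It stood at 9.02 in gas-1 mutants, 9.94 in mev-1 mutants and 8.47 in isp-1 mutants, against 9.09 in the K12 wild type. Of the ssq genes, ssq-1, ssq-2 and ssq-3 were lower in nduf-6 RNAi by log2 differences of -2.89, -2.40 and -3.08, and higher in ndub-7 RNAi by 1.42, 2.07 and 0.68. A second probe set of ssq-3, at a mean level of 6.60, differed by -3.84 in nduf-6 RNAi and 0.36 in ndub-7 RNAi. Further probe sets of these genes had mean levels of 2.27 (ssq-1), 2.36 (ssq-2) and 2.51 (ssq-3), below the filter, and cannot show a difference.

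Among the families, the spe genes were the most evenly split between higher and lower in nduf-6 RNAi. Their 15 members that passed the filter had a median log2 difference of -0.087 in nduf-6 RNAi, with 9 lower and 6 higher. Of the 15, spe-11 and spe-18 were at least 2-fold lower, against 4.01% of all genes tested. In ndub-7 RNAi the median was 1.36, with 13 of 15 higher and 9 at least 2-fold higher, against 11.5% of all genes tested. In mev-1 all 15 were higher, by a median of 0.55. In the HT115 wild type spe-26, spe-27, spe-46, spe-54 and spe-55 stood at log2 levels of 2.66 to 2.93, near the filter level of 2.60. A lower level in nduf-6 RNAi thus had little room to show for them, although spe-46 differed by -0.54 there.

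The gene spe-11 encodes a paternally supplied protein that the embryo needs after fertilization. Its log2 level was 6.53 in gas-1 mutants, 7.68 in mev-1 mutants and 5.63 in isp-1 mutants, against 6.54 in the K12 wild type. It was 4.08 in nduf-6 RNAi, 6.13 in nuo-5 RNAi, 5.71 in ndua-13 RNAi, 6.70 in the array labelled ndab-1 RNAi and 8.03 in ndub-7 RNAi, against 6.01 in the HT115 wild type. The nduf-6 RNAi array was the lowest and ndub-7 RNAi and mev-1 were the highest, as for the major sperm protein genes, on a probe set that is not marked as shared. The arrays between them came in another order, with the HT115 wild type above isp-1 and ndua-13 RNAi.

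The gene spe-4 encodes a presenilin of the membranous organelles in developing spermatocytes. Its log2 level was 4.43 in gas-1 mutants, 5.77 in mev-1 mutants and 4.05 in isp-1 mutants, against 4.03 in the K12 wild type. It was 3.46 in nduf-6 RNAi, 4.11 in nuo-5 RNAi, 4.19 in ndua-13 RNAi, 4.03 in the array labelled ndab-1 RNAi and 6.41 in ndub-7 RNAi, against 3.21 in the HT115 wild type. Here the HT115 wild type, not nduf-6 RNAi, was the lowest array, and ndub-7 RNAi and mev-1 stood apart at the top.

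The same top pair was seen for spe-26, a kelch-repeat protein needed in spermatocytes. Its log2 level was 2.69 in gas-1 mutants, 3.63 in mev-1 mutants and 2.68 in isp-1 mutants, against 3.46 in the K12 wild type. It was 2.64 in nduf-6 RNAi, 2.69 in nuo-5 RNAi, 2.65 in ndua-13 RNAi, 2.70 in the array labelled ndab-1 RNAi and 4.73 in ndub-7 RNAi, against 2.66 in the HT115 wild type. All but mev-1, ndub-7 RNAi and the K12 wild type lay within 0.1 of the filter level.

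Some spe genes did not follow the set. The transcription factor gene spe-44, which acts in the germ line when spermatogenesis begins, ranged over 0.77 on the log2 scale, with differences of 0.079 in nduf-6 RNAi, 0.072 in ndub-7 RNAi, 0.37 in mev-1 and 0.16 in isp-1. The gene spe-39, whose product acts in vesicle traffic in many tissues, ranged over 0.67, with differences of -0.16 in nduf-6 RNAi and -0.58 in ndub-7 RNAi. The gene spe-5, for a subunit of the vacuolar proton pump, had differences of 0.019 in nduf-6 RNAi and -0.71 in ndub-7 RNAi. Together with ssp-37 and ssq-4, which differed by -0.34 and -0.014, spe-39 and spe-5 were the 4 genes lower in ndub-7 RNAi against the direction of their set.

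The 8 genes that were higher in nduf-6 RNAi, against the direction of their set, were spe-4, spe-5, spe-15, spe-44, spe-48, spe-55, ssp-19 and ssq-4, with log2 differences of at most 0.25. Of these, spe-15 encodes a myosin VI that sorts cell components as spermatids bud. Its log2 level was 6.97 in ndub-7 RNAi, above all other arrays, and 5.96 in nduf-6 RNAi, against 5.87 in the HT115 wild type. The smallest ranges of the 49 genes were those of spe-36, spe-38 and spe-40, below the filter in all 10 arrays.

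**Figure D3:**
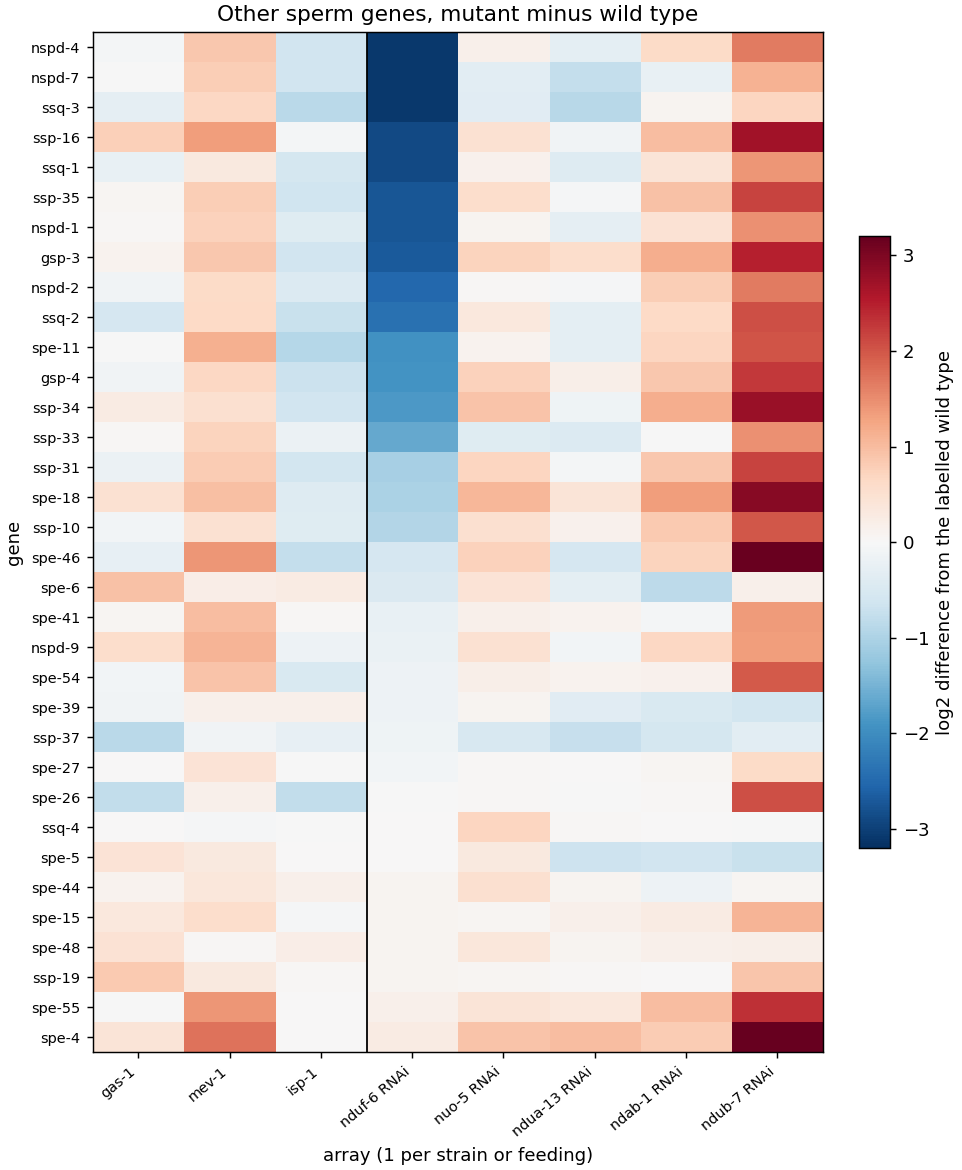
Log2 difference of each mutant array from its labelled wild type (colour) for the 34 other sperm genes tested (rows, ordered by their difference in nduf-6 RNAi) in the 3 missense and 5 RNAi arrays (columns, divided by a line). The upper rows are blue in nduf-6 RNAi and red in ndub-7 RNAi, while spe-4 and spe-55 at the bottom are red in ndub-7 RNAi and pale in nduf-6 RNAi.

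Sperm genes on unshared probe sets differed too. Of the 34 other sperm genes, 17 were read on probe sets not marked as shared in any way, and 11 of these were at least 2-fold higher in ndub-7 RNAi, against 11.5% of all genes tested, with a median of 1.42. In nduf-6 RNAi 6 of these 17 were at least 2-fold lower, against 4.01% of all genes tested, namely ssp-16, ssp-34, ssp-35, spe-11, ssq-1 and ssq-2, with a median over the 17 of -0.20. Of the 11 genes on the same class of probe set as the major sperm protein genes, 9 were at least 2-fold lower in nduf-6 RNAi, with a median of -2.51, and 9 at least 2-fold higher in ndub-7 RNAi, with a median of 1.65.

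Sperm genes with other names behaved in the same way. A list of 19 such genes had 9 on the array under a single symbol and 7 past the filter, with fer-1 and snf-10 below it. The 7 had median log2 differences of 0.70 in mev-1 (7 higher), -0.47 in isp-1 (7 lower), -1.71 in nduf-6 RNAi (7 lower) and 2.44 in ndub-7 RNAi (7 higher). The widest range was that of spch-1, a basic protein of sperm chromatin, with log2 levels of 3.32 in nduf-6 RNAi and 9.27 in ndub-7 RNAi, against 6.58 in the HT115 wild type. For msd-4, a small protein with a major sperm protein domain, the levels were 4.64 and 10.09 in those RNAi arrays, against 8.26 in the HT115 wild type. For msd-2, of the same kind, they were 6.21 and 10.89, against 9.15. For htas-1, a histone variant of sperm, they were 3.76 and 7.84, against 5.40.

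Of 18 genes that control germline sex or sperm gene expression, 17 passed the filter, and most differed little between arrays. The median log2 difference of the 17 lay between -0.031 and 0.18 in the 8 mutant arrays. The exceptions with the widest ranges were alg-4, fog-3 and alg-3. The Argonaute genes alg-3 and alg-4 act with small RNAs in developing sperm. For alg-4 the log2 level was 4.72 in gas-1 mutants, 5.91 in mev-1 mutants and 3.76 in isp-1 mutants, against 4.97 in the K12 wild type. It was 2.68 in nduf-6 RNAi, 4.20 in nuo-5 RNAi, 3.91 in ndua-13 RNAi, 5.03 in the array labelled ndab-1 RNAi and 6.71 in ndub-7 RNAi, against 3.49 in the HT115 wild type. The order of arrays was again that of the major sperm protein genes at both ends, and alg-3 had its highest levels in mev-1, at 4.34, and ndub-7 RNAi, at 4.29, with 1.72 in nduf-6 RNAi, against 2.96 in the K12 and 2.12 in the HT115 wild type.

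The gene fog-3, which directs germ cells to become sperm, had another order. Its log2 level was 6.32 in gas-1 mutants, 6.01 in mev-1 mutants and 3.92 in isp-1 mutants, against 3.71 in the K12 wild type. It was 3.58 in nduf-6 RNAi, 4.28 in nuo-5 RNAi, 4.20 in ndua-13 RNAi, 3.83 in the array labelled ndab-1 RNAi and 6.402 in ndub-7 RNAi, against 3.23 in the HT115 wild type. It was thus high in gas-1, where the major sperm protein genes had a median log2 difference of -0.063 from the K12 wild type. With the mean of both wild types that median was 0.32. The gene fog-1, which also promotes the sperm fate, had levels of 8.36 in gas-1 mutants, 7.80 in mev-1 mutants and 7.77 in isp-1 mutants, against 6.85 in the K12 wild type, so all 3 lay above that wild type. In the RNAi arrays fog-1 lay between 7.57 (ndub-7) and 8.33 (nuo-5), against 7.28 in the HT115 wild type. The GATA factor gene elt-1, whose product binds promoters of major sperm protein genes, ranged over 0.92 on the log2 scale. It lay below the labelled wild type in every mutant array, by log2 differences from -0.13 in nduf-6 RNAi to -0.77 in ndub-7 RNAi. The K12 wild type differed from the HT115 wild type by -0.32 for this gene.

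**Figure D4:**
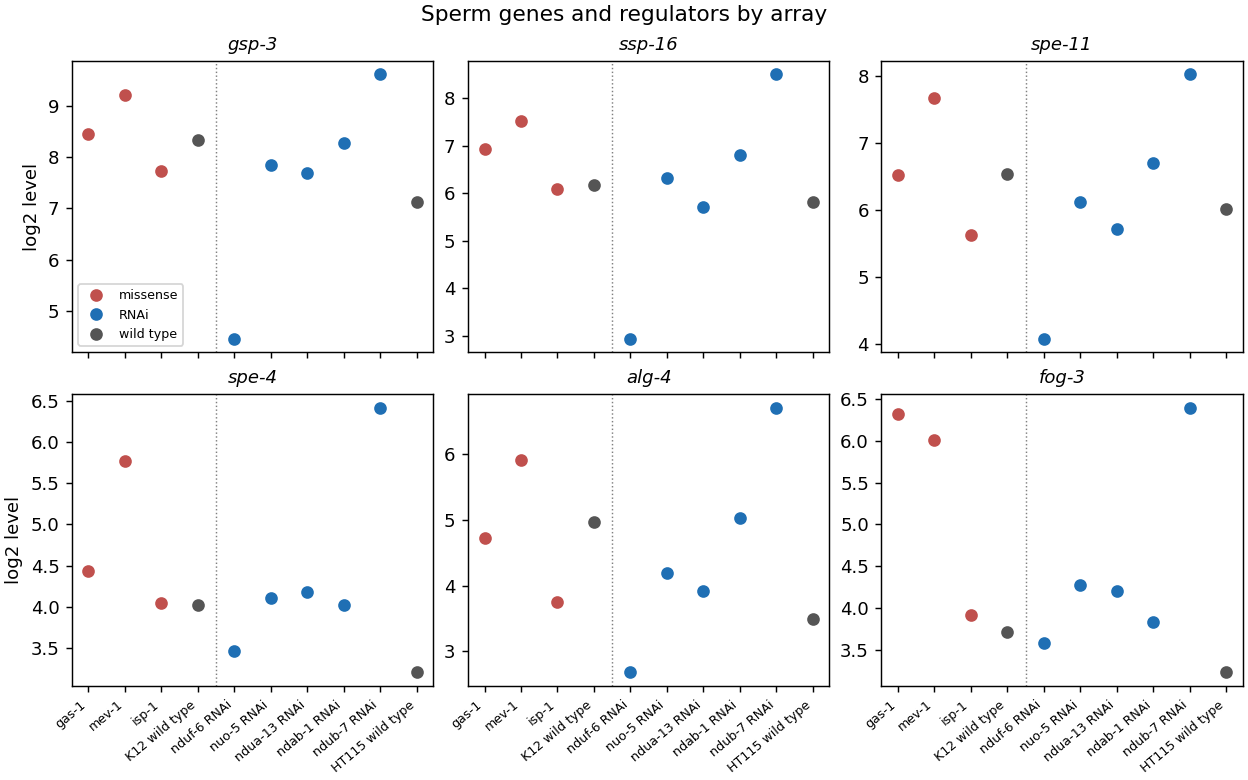
Log2 level (y axis, a separate scale for each gene) of gsp-3, ssp-16, spe-11, spe-4, alg-4 and fog-3 in the 10 arrays (x axis), with 1 point per array, K12 culture left and HT115 culture right of the dotted line. The nduf-6 RNAi point is the lowest for gsp-3, ssp-16, spe-11 and alg-4, and fog-3 is high in gas-1, mev-1 and ndub-7 RNAi.

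Genes of other tissues and stages moved beside the sperm genes. The 21 oocyte and eggshell genes ran opposite to them in the arrays where the sperm genes stood furthest from wild type. Their median log2 difference was -0.81 in ndub-7 RNAi (21 of 21 lower) and 0.29 in nduf-6 RNAi (20 of 21 higher), and perm-4, which acts in eggshell formation, had levels of 12.69 and 14.51 in those arrays, against 14.37 in the HT115 wild type. In mev-1 and isp-1 the medians were -0.066 and 0.088. In the arrays with smaller sperm gene shifts they were -0.13 in gas-1 (17 of 21 lower), 0.13 in nuo-5 RNAi (16 higher), -0.16 in ndua-13 RNAi (17 lower) and -0.28 in the array labelled ndab-1 RNAi (20 lower). The summed signal of the 21 genes on the linear scale ran from 129160 to 140436 in the missense arrays and from 78423 to 175134 in the RNAi arrays, against 137670 and 149551 in the wild types.

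The 14 genes of moulting, a process of larvae, were higher in ndub-7 RNAi by a median log2 difference of 1.18 (14 of 14) and lower in nduf-6 RNAi by a median of -0.31 (11 of 14). In gas-1 they were lower by -0.59 (12 of 14) and in mev-1 by -0.083 (10 of 14), so in mev-1 they did not move with the sperm genes. Their summed signal ran from 5004 to 7614 in the missense arrays and from 6228 to 15563 in the RNAi arrays, against 7763 and 8375 in the wild types. The 11 meiotic chromosome genes had medians of -0.71 in ndub-7 RNAi (11 lower), -0.50 in ndua-13 RNAi (10 lower), -0.43 in the array labelled ndab-1 RNAi (11 lower), 0.0052 in nduf-6 RNAi, 0.14 in mev-1 and 0.15 in isp-1. They were thus lower in ndua-13 RNAi, where the medians of the sperm sets were 0.18 and -0.047, and the K12 wild type lay below the HT115 wild type by a median of -0.34 (11 lower). The 5 yolk genes had medians of -0.54 in ndub-7 RNAi, 0.043 in nduf-6 RNAi and -0.31 in mev-1. In ndub-7 RNAi 4 of them were lower, and vit-1 was higher by a log2 difference of 1.13. In nduf-6 RNAi 3 were higher and 2 lower, with vit-1 at -1.02. Of the 6 early embryo genes that passed the filter, tbx-38 did so only through nduf-6 RNAi, its highest array. The 5 others had medians of -0.49 in ndub-7 RNAi (5 lower), 0.19 in nduf-6 RNAi (4 higher) and -0.091 in mev-1. The part of the stage or germline composition of the populations in the sperm gene differences was not tested.

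Males make sperm throughout adult life, so genes of male neurons and seminal fluid were read too. Of 12 measured genes of that list, lov-1, pkd-2, cwp-1, cwp-3, cwp-5 and dmd-3 lay below the filter, and the 6 others had medians between -0.071 and 0.11 in the 8 mutant arrays. The highest log2 level among the others was 4.84 for cwp-4, in the K12 wild type, except for swm-1, which lay between 10.49 and 11.23. The summed signal of the 12 genes, mostly that of swm-1, ran from 1519 to 2471 in the missense arrays and from 1990 to 2363 in the RNAi arrays, against 1738 and 2064 in the wild types. In ndub-7 RNAi, the array with the highest sperm gene levels, the 6 had a median of -0.054, and of -0.056 without mab-3, which passed the filter only through that array.

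**Figure D5:**
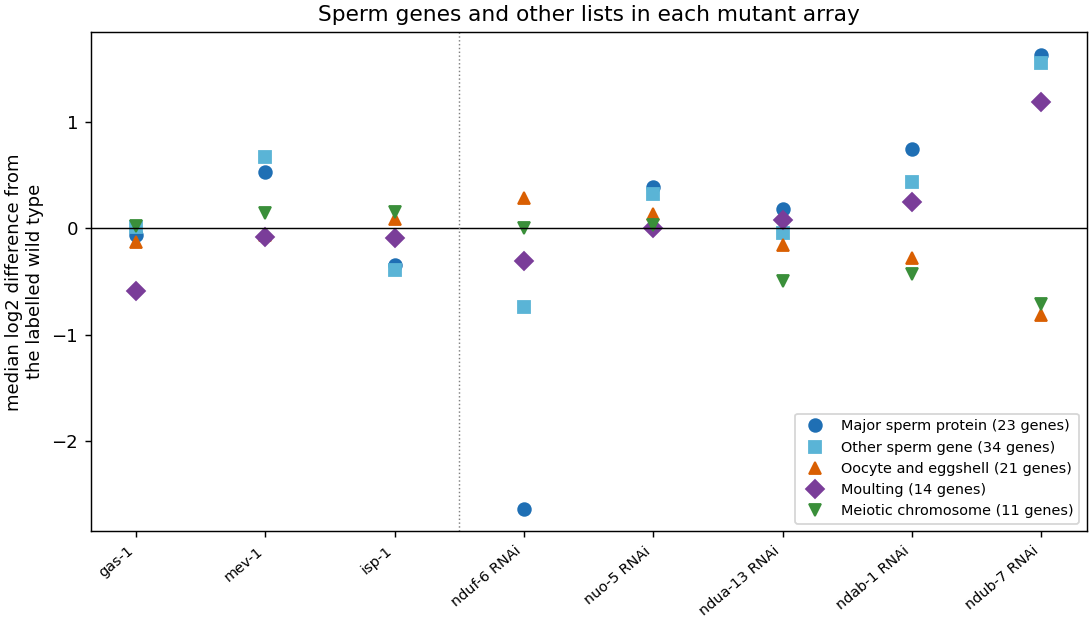
Median log2 difference from the labelled wild type (y axis) in each of the 8 mutant arrays (x axis), for the major sperm protein genes, the other sperm genes, and the oocyte and eggshell, moulting and meiotic chromosome genes, with 1 point per list. In ndub-7 RNAi the sperm sets lie at 1.63 and 1.55 and the oocyte genes at -0.81, and in nduf-6 RNAi the major sperm protein genes lie at -2.63.

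Tested over the mutants as groups, no sperm gene that passed the filter was called different from wild type. With limma and a Benjamini-Hochberg adjusted p threshold of 0.05, 0 of the 57 sperm genes that passed the filter were called in any of 4 comparisons, and 0 had an unadjusted p under 0.05. Over all genes tested, the shares called were 0.0158% for the 8 mutants against both wild types, 0.0316% for the missense mutants against theirs, 0.396% for the RNAi animals against theirs and 0.0475% for the difference between the responses. At an unadjusted p under 0.05 the shares were 6.91%, 3.05%, 8.2% and 4.23%, in the same order of comparisons. With 1 array per wild type, its spread was taken to be that among mutants of a kind, which differ from each other in the gene hit, and the p-values are measured against that spread.

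The median log2 fold change of the 23 major sperm protein genes was 0.069 in the 8 mutants, 0.045 in the missense mutants, 0.025 in the RNAi animals and 0.0033 for the difference between the responses. The medians of their standard errors were 0.90, 1.39, 1.32 and 1.92, each far larger than the change. For the 34 other sperm genes the medians were 0.15, 0.12, 0.18 and -0.022. The smallest adjusted p in limma was 0.76, for ssp-37 in the 8 mutants, with a log2 fold change of -0.44 and a standard error of 0.21. For gsp-3 the RNAi animals averaged 7.58 ± 1.91 (SD, n = 5) on the log2 scale, against 7.13 in the single HT115 wild type, with a log2 fold change of 0.45, a standard error of 1.53 and an adjusted p in limma of 0.998.

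These genes had a wide spread between arrays of a kind. With the standard errors given above, a shared shift could have gone uncalled. The spread includes the gap between nduf-6 and ndub-7 RNAi already described, so it is not separate evidence. The residual standard deviation in the fit of 4 groups had a median of 1.40 for the major sperm protein genes and 1.00 for the other sperm genes, against 0.29 for all genes tested. All 23 major sperm protein genes and 17 of the 34 others lay among the 5% of genes with the largest residual standard deviation, above 0.97. Within the RNAi arrays the standard deviation of the major sperm protein genes had a median of 1.66, and within the missense arrays of 0.48. The RNAi average rested on single arrays, since the median log2 fold change of the 23 genes was 0.72 without nduf-6 RNAi and -0.36 without ndub-7 RNAi.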

How the data were processed

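Total RNA of whole animals was measured on 10 Affymetrix arrays, each with RNA of 3 biological replicates combined, per the labels' protocols. The authors deposited log2 values per probe set. The scale was inferred from the values, which lay between 1.43 and 16.01, and the steps of summarisation and normalization are not given in the sources used here. Array medians ranged from 5.88 to 6.012, so the 10 arrays were brought to a common distribution by quantile normalisation. The table held 22625 probe sets, of which 77 were controls, 20766 had 1 gene symbol, 887 had several and 895 had none, and 20701 matched RefSeq (WBcel235, used for names and gene order only). Gene names come from the platform annotation, which can be old. Genes with a mean log2 level under the 25th percentile, 2.60, were left out.

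The 72 sperm genes had 78 probe sets. Members and lists were chosen with earlier results of these data known. Groups were compared with limma 3.58.1 in R 4.3.3 (empirical Bayes, mean-variance trend, two-sided, Benjamini-Hochberg over 12641 genes), with a culture term for the 8 mutants together, and otherwise as 4 groups with 6 residual degrees of freedom. The fits were tested on simulated data. Single arrays were set against their labelled wild type by size, with 2-fold as the mark. Precision is limited by the number of arrays, and signal over background was not used here. Named genes are, by rule, those past the threshold, those with the 5 largest and 3 smallest ranges in each set, gsp-3, gsp-4, spe-4, spe-9, spe-11, spe-26, spe-38, spe-39 and spe-44, those against the sign of their set in nduf-6 or ndub-7 RNAi, those next to the filter, and up to 4 per other list. Any other gene was chosen after its values were seen. The planned count of promoter motifs was not run, since no promoter sequence was used here.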

Additional observations from a re-analysis of the deposited data

Results flagged for a closer look

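A gap test after Dixon over the 5 RNAi arrays was made of 29 values, the sperm genes named by rule that passed the filter and the medians of both sets, and it singled out 7. Chance marks about 1 in 20 groups that were not picked on their values, and that rate does not hold here, since part of the genes were named for their range or sign on the same arrays. The log2 level of msp-78 was 10.46 in nduf-6 RNAi, far below the nearest RNAi array at 13.15. In ndub-7 RNAi, spe-4 stood at 6.41 with the nearest array at 4.19, spe-26 at 4.73 with the nearest at 2.70, spe-15 at 6.97 with the nearest at 6.13, ssp-19 at 4.54 with the nearest at 3.77, and spe-27 at 3.46 with the nearest at 2.90. In nuo-5 RNAi, ssq-4 stood at 3.23 with the nearest array at 2.57, and it passed the level filter only through this array, with a mean of 2.54 without it, against a filter level of 2.60. The genes share arrays and are not independent.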

How the results depend on the processing

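Single-array medians under 2-fold changed sign in places. With the mean of both wild types the major sperm protein median was 0.32 in gas-1 and -0.11 in ndua-13 RNAi, against -0.063 and 0.18 with the labelled one, and msp-142 in isp-1 was at 0.19, against -0.15. With the probe sets of several symbols the gas-1 median was 0.030, and on the values as deposited the median of the other sperm genes in ndua-13 RNAi was 0.015, against -0.047. In each of 6 alternatives 23 of 23 major sperm protein genes stayed lower by the fold used in nduf-6 RNAi and 22 or 23 of 23 higher by it in ndub-7 RNAi. Among the 6, neither leaving out the filter nor lowering the fold to 1.5 could change these counts. All 23 genes passed the filter and were already past 2-fold. At a fold of 1.5, 10.5% of all genes tested were lower in nduf-6 RNAi and 19.2% higher in ndub-7 RNAi. With the mean of both wild types, 2.77% and 10.2% were so at 2-fold. Counts of all genes called by limma were small and unstable. For the 8 mutants, 2 genes were called, against 4 on the values as deposited, 12 without the filter, and 0 with median centring, with the mean of all probe sets, with no mean-variance trend or with no culture term. Leaving out 1 array gave 0 to 50, with 50 without the K12 wild type. For the missense mutants, 4 were called, against 2 with median centring, 98 without the filter and 1 to 10 with 1 array left out. For the RNAi animals, 50 were called, against 305 without the filter and 33 to 69 with 1 array left out. For the difference between the responses, 6 were called, against 251 without the filter, 3 without the trend and 4 to 9 with 1 array left out. Without the filter, 1 sperm gene was called in the missense mutants, spe-51 (log2 fold change -0.13, standard error 0.020, adjusted p 0.0474 in limma), which lay below the filter. The causes were not tested. At a fold of 1.5, 7 major sperm protein genes and 20 other sperm genes were higher in mev-1 (9.02% of all genes tested), against 0 and 6 at 2-fold. In isp-1, 1 and 12 were lower (7.25%), against none at 2-fold. In the array labelled ndab-1 RNAi, 15 and 16 were higher (11.8%), against 5 and 3, in nuo-5 RNAi 4 and 8 (9.88%), against 0 and 1, and in the K12 against the HT115 wild type 14 and 11 (10.3%), against 0 and 4. In gas-1 and ndua-13 RNAi no major sperm protein gene passed it and at most 4 others did in any 1 direction. With the mean of both wild types, 6 and 12 were at least 2-fold higher in mev-1 (5.59% of all genes tested), and none in the array labelled ndab-1 RNAi (3.19%). No paired analysis was possible because the labels number only the RNAi mutants, and each wild type is 1 array.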
